A study of Mus musculus with 2 samples.

Results

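Srxn1, Gclm, Gclc, Hmox1, Nqo1, Txnrd1, Slc7a11, Gstp1, Gstm1 and Prdx1 are 10 genes of antioxidant defence and glutathione metabolism, taken by symbol from the 31053 genes counted in single cells of the mouse mammary gland. All 10 were found. The cells came from C57BL/6 mice and carried the sort label CD24highCD29+. They formed 2 droplet libraries of polyA RNA, 1 with the genotype label Fgd5-ko and 1 with the label WT. Fgd5 activates the small GTPase Cdc42. The design text calls the mice of the first library depleted of Fgd5, and its title holds the word cko. No source used here gives the promoter or cell type that would drive a deletion, the deleted part, the age or number of the mice, or what P4 in the titles means. With 1 library per group there is no replicate check and no test. Intervals in parentheses are exact, at 95%, and cover counting error only.

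Glutathione is a tripeptide that cells use to detoxify peroxides and reactive compounds. Slc7a11 is the cystine-importing subunit of the cystine and glutamate exchanger, Gclc and Gclm are the catalytic and modifier subunits of glutamate-cysteine ligase, which limits the rate of glutathione synthesis, and Gstp1 and Gstm1 are glutathione transferases. Prdx1 is a peroxiredoxin that reduces hydrogen peroxide, Txnrd1 keeps its reductant thioredoxin reduced, and Srxn1 (sulfiredoxin) restores peroxiredoxins that have been overoxidised. Nqo1 reduces quinones and Hmox1 breaks down haem. Many of these genes are known targets of NRF2 (Nfe2l2), which the adaptor Keap1 holds back and which binds the antioxidant response element together with small MAF proteins. BACH1, a repressor that haem releases from DNA, binds the same element.

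Promoters of 4 members are shown, those of Srxn1 and Gstp1 as the members with the highest and lowest ratio in basal-like cells, and those of Txnrd1 and Gclm because they hold letters of that element. They were picked with the ratios known. In basal-like cells Srxn1, Txnrd1 and Gclm, which hold the letters, were higher in the Fgd5-ko-labelled library, and Prdx1, which holds them too, was lower. Of the members whose windows lack them, Nqo1 was higher, and Gstp1, Slc7a11 and Gstm1 were lower. Prdx1 and Gstm1 lay within 1.5-fold, and a link of the letters with direction was not tested. Windows from RefSeq on GRCm38.p6 reach from 250 bases before to 50 bases after an annotated start, and 11 windows of 8 members were matched by symbol. Hmox1 and Gclc had none. The core of the element was searched as TGACNNNGC and the AP-1 site, which FOS and JUN proteins bind, as TGANTCA, both on either strand. Other spellings of the element were not searched, so a window without a match lacks this pattern only. The motifs can overlap, as they do in Prdx1. Capitals mark every match of either motif, and each window reads 5′ to 3′ on its gene's strand.
Srxn1, chr2:152105274-152105573, plus strand: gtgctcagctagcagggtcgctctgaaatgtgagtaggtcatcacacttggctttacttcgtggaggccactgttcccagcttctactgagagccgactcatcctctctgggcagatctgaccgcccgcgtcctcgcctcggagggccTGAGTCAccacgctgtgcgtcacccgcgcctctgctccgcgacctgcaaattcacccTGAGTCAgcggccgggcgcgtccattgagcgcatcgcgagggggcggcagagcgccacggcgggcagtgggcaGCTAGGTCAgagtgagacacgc
Txnrd1, chr10:82858956-82859255, plus strand: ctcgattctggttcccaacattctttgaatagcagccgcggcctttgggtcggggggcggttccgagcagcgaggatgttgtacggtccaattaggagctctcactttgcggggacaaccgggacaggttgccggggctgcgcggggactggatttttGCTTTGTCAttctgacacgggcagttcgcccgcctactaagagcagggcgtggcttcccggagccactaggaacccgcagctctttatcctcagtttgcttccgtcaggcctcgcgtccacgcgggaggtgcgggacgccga
Gclm, chr3:122245307-122245606, plus strand: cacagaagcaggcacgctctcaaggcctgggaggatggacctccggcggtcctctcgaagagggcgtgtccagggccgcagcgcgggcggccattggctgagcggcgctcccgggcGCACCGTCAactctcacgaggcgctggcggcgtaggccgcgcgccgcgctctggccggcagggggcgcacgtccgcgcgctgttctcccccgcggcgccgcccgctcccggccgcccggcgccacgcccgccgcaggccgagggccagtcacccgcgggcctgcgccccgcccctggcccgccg
Gstp1, chr19:4037863-4038162, minus strand: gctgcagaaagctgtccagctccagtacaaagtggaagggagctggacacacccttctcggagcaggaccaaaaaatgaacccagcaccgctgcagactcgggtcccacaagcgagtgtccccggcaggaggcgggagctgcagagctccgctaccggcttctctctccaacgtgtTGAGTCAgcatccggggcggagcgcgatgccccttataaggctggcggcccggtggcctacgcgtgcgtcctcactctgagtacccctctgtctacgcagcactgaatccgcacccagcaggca
The core was matched in 4 of 11 windows, those of Srxn1, Gclm and Prdx1 and 1 of the Txnrd1 windows, against 12.4% of 32544 mouse windows of the same length. All 4 matches lay on the strand opposite to the gene. Counted from the annotated start of its own window, the leftmost base was at -92 in Txnrd1, at -134 in Gclm, at -133 in Prdx1 and at 29 in Srxn1. AP-1 letters were matched in 3 windows, at 2 places in Srxn1 (leftmost bases at -102 and -45), at 2 places in Prdx1 and at 1 place in Gstp1 (at -74), against 7.79% of all windows. The Txnrd1 window with the match belongs to a start inside the gene, and the window at the 5′ end of the gene (chr10:82833701-82834000) holds no match. A match is a description of letters and shows no binding.

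The Fgd5-ko-labelled library held 8798 barcodes and 136697801 UMIs (unique molecules counted), and the WT-labelled library 10735 barcodes and 60566053 UMIs. The authors' table lists 6064 and 6588 of these barcodes as cells, with medians of 15712 UMIs per Fgd5-ko-labelled and 4954 UMIs per WT-labelled cell. Of the listed cells 5209 (85.9%) in the Fgd5-ko-labelled and 6342 (96.3%) in the WT-labelled library were basal-like. All 10 basal markers, Krt5 and Krt14 among them, were detected, and they summed to 17448 CPM (UMIs of a gene per 1000000 UMIs) in the Fgd5-ko-labelled and 25149 CPM in the WT-labelled basal-like cells. A listed cluster of 815 cells, all Fgd5-ko-labelled, stayed unnamed because the fibroblast marker Dcn was among its top 10 genes. It scored highest on the basal list, with a mean log2(CPM + 1) of 9.65 against 2.86 on the fibroblast list. All 10 basal markers were detected in it, and it is left out of the basal-like cells here. Barcodes outside the table added 350 Fgd5-ko-labelled and 200 WT-labelled basal-like, 474 and 711 fibroblast-like, and 255 and 779 endothelial-like barcodes. The libraries shared 34 barcodes, and leaving these out left every member's call as it was. Doublets were not called.

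Fgd5 went against the labels. In basal-like cells Fgd5 (ENSMUSG00000034037, chr6:91978878-92076004, plus strand) was at 4.03 CPM (3.62 to 4.47, 355 UMIs) in the Fgd5-ko-labelled library and at 0.67 CPM (0.43 to 1.004, 24 UMIs) in the WT-labelled library. Endothelial-like cells, a type known to express Fgd5, had 127 CPM in the Fgd5-ko-labelled and 91.4 CPM in the WT-labelled library. A 3′ tag outside the deleted part would check nothing, and Fgd5 overlaps a counted antisense gene, 4930466I24Rik. Each direction below is therefore that of the Fgd5-ko-labelled over the WT-labelled library, and not of Fgd5 loss. A lower summed level can be fewer expressing cells or less of the RNA per cell, which sums do not tell apart.

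In basal-like cells the members went in both directions. Srxn1, Txnrd1, Nqo1 and Gclm were at least 1.5-fold higher in the Fgd5-ko-labelled library, Gstp1, Slc7a11 and Hmox1 were at least 1.5-fold lower, and Gclc, Gstm1 and Prdx1 lay within 1.5-fold. Across all 14868 genes with at least 20 UMIs in these cells, 26.9% were at least 1.5-fold higher and 10.1% at least 1.5-fold lower, so many genes crossed that limit. In basal-like cells the members' median log2 ratio was 0.05, against 0.24 over all genes tested. Its sign turned with TMM factors (-0.13), which shift every ratio by -0.18, and with median of ratios factors (-0.15), which shift every ratio by -0.20. It was also below 0 without mitochondrially encoded and ribosomal protein genes (-0.048), over all listed cells (-0.030) and with cells thinned to 2000 UMIs (-0.017), so the median has no stable sign. The direction of each member but Gstm1 was the same under all 11 alternatives of scaling, cell choice and minimum count. The alternative minimum, at least 1 UMI in each library, changes only which genes are counted and could not alter a direction.

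**Figure D1:**
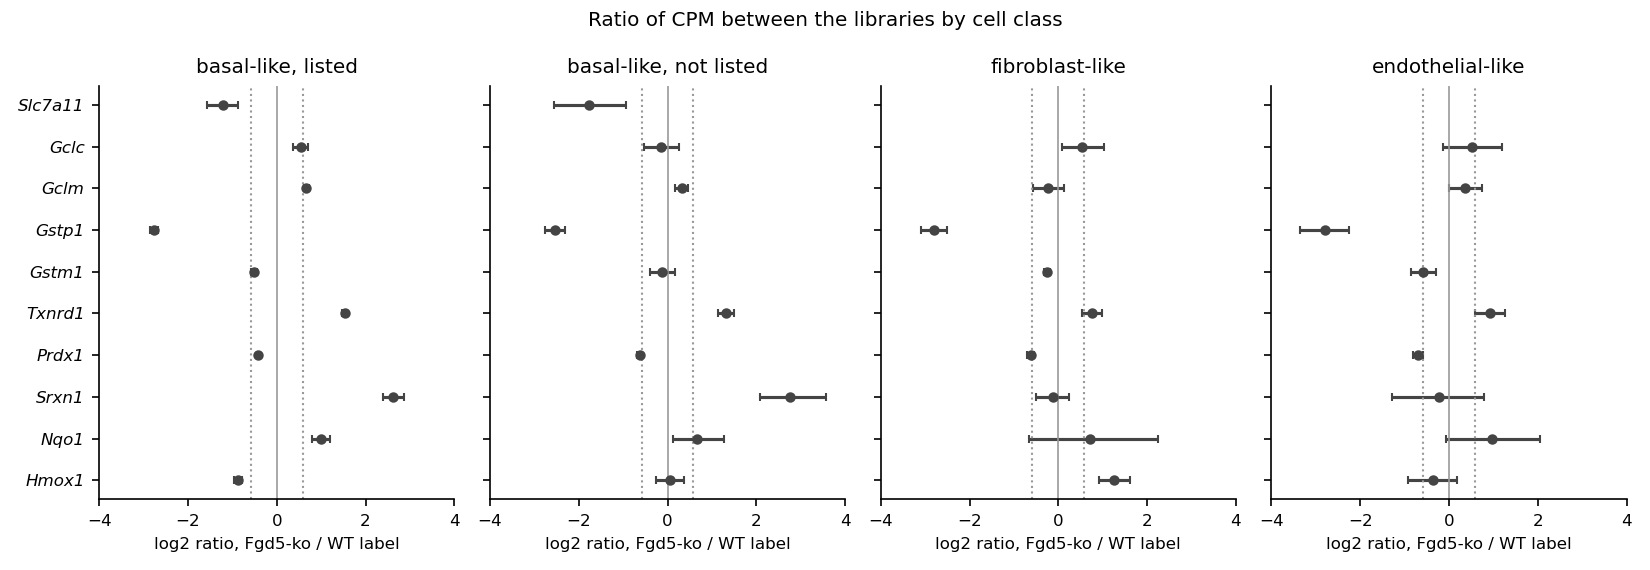
Log2 ratio of CPM, Fgd5-ko-labelled over WT-labelled library, for each gene (rows) in 4 cell classes (panels), where at least 20 UMIs were counted and neither library was at 0. Points are ratios, bars exact intervals for counting error, dotted lines 1.5-fold. Gstp1 lies far to the left in every panel, between -2.79 and -2.53, whereas Srxn1 lies far to the right in the basal-like panels (2.62 and 2.77) and near 0 in the others (-0.12 and -0.22).

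The cystine importer Slc7a11 (ENSMUSG00000027737, chr3:49892526-50443614, minus strand) was sparse throughout. In basal-like cells it was at 1.66 CPM (1.40 to 1.95, 146 UMIs) in the Fgd5-ko-labelled library and at 3.85 CPM (3.23 to 4.55, 137 UMIs) in the WT-labelled library, a log2 ratio of -1.22 (-1.56 to -0.87). These UMIs lay in 102 Fgd5-ko-labelled cells, with up to 5 in a cell, and in 82 WT-labelled cells, with up to 12 in a cell. The intervals take UMIs as independent, which UMIs of the same cell may not be, so they can be too narrow. Basal-like barcodes outside the table showed the same direction, with 2.05 CPM in the Fgd5-ko-labelled and 6.93 CPM in the WT-labelled library (log2 ratio -1.76, -2.57 to -0.94). In fibroblast-like cells the Fgd5-ko-labelled library had 0 Slc7a11 UMIs, which allows up to 0.513 CPM, and the WT-labelled library had 4 UMIs. Whether counting used the strand is not known here, so reads of Slc7a11 and of Gm37854, a counted gene annotated antisense to it, may not be separable.

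The catalytic subunit Gclc (ENSMUSG00000032350, chr9:77754535-77794485, plus strand) was at 14.8 CPM (14.1 to 15.7) in Fgd5-ko-labelled basal-like cells and at 10.2 CPM (9.21 to 11.3) in WT-labelled ones, a log2 ratio of 0.54 (0.37 to 0.71). Across classes it was rather even: the 4 Fgd5-ko-labelled classes of at least 50 cells lay between 14.8 and 19.1 CPM, with overlapping intervals between neighbours in the order. In the WT-labelled library the 113 hormone-sensing luminal-like cells stood above the rest at 59.9 CPM (49.2 to 72.3), with every other class between 4.95 and 19.4 CPM. Gclm, the partner subunit, was highest in those same cells at 239 CPM (217 to 263). Both subunits thus peaked in a luminal class of which the Fgd5-ko-labelled library held 10 cells, too few to compare.

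The modifier subunit Gclm (ENSMUSG00000028124, chr3:122245557-122270732, plus strand) was at 122.7 CPM (120.4 to 125) in Fgd5-ko-labelled basal-like cells and at 77.3 CPM (74.4 to 80.2) in WT-labelled ones, a log2 ratio of 0.67 (0.61 to 0.73). Gclm was lower in endothelial-like cells, at 52.4 CPM in the Fgd5-ko-labelled and 40.6 CPM in the WT-labelled library, and lowest in fibroblast-like cells, at 25.1 CPM and 29.3 CPM. Its ratio moved with the cells and the scaling. Among cells of 4000 to 12000 UMIs (1452 Fgd5-ko-labelled and 4435 WT-labelled cells) the log2 ratio was 0.09, and with TMM factors it was 0.49. Over 4 groups of basal-like cells of rising depth, Gclm stood at 83.4, 103.7, 128 and 141 CPM in the Fgd5-ko-labelled library and at 53.6, 57.6, 76.3 and 95.7 CPM in the WT-labelled library. In both libraries deeper cells thus had a larger share of Gclm among their UMIs.

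The pi-class transferase Gstp1 (ENSMUSG00000060803, chr19:4035407-4037985, minus strand) had the lowest ratio of the 10 members, and by about the same amount in every class compared. It was at 16.04 CPM (15.2 to 16.9, 1414 UMIs) in Fgd5-ko-labelled basal-like cells and at 109.1 CPM (105.7 to 112.6, 3882 UMIs) in WT-labelled ones, 6.80-fold lower (log2 ratio -2.77, -2.86 to -2.68). The log2 ratio was -2.53 (-2.76 to -2.30) in basal-like barcodes outside the table, -2.79 (-3.10 to -2.50) in fibroblast-like and -2.79 (-3.37 to -2.25) in endothelial-like cells. Classes of at least 50 cells lay at 13.4 to 19.1 CPM in the Fgd5-ko-labelled library and at 60.4 to 176 CPM in the WT-labelled library. States of basal-like cells lay at 13.3 to 18.7 CPM in the 7 Fgd5-ko-labelled and 63.2 to 124 CPM in the 6 WT-labelled ones. The share of all genes whose ranges lie apart in this way was not computed, so these ranges only describe Gstp1.

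Counts of Gstp1 are uncertain because of its close copies. Of 451 windows of 50 bases in the last 500 bases of its transcript, 339 (75.2%) also occur in Gstp2, which was counted too, or in Gstp-ps. Reads there cannot be placed on 1 gene. Gstp2 itself had 17 UMIs in Fgd5-ko-labelled and 39 UMIs in WT-labelled basal-like cells, a log2 ratio of -2.51 (-3.42 to -1.65). How reads of several origins were treated is not known here, and the part of this in the Gstp1 ratio was not tested.

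The mu-class transferase Gstm1 (ENSMUSG00000058135, chr3:108012255-108017973, minus strand) was highest in fibroblast-like cells, at 624 CPM (604 to 644) in the Fgd5-ko-labelled and 740 CPM (715 to 766) in the WT-labelled library. Endothelial-like cells had 65.4 CPM in the Fgd5-ko-labelled and 97.6 CPM in the WT-labelled library. Basal-like cells had 43.9 CPM (42.5 to 45.3) in the Fgd5-ko-labelled and 62.6 CPM (60.1 to 65.3) in the WT-labelled library, a log2 ratio of -0.51 (-0.59 to -0.44). Gstm1 was the member whose direction turned with the cells compared, to 0.26 among cells of 4000 to 12000 UMIs, while with TMM factors it was past 1.5-fold at -0.69. It went with depth in the opposite way to Gclm: the deepest and shallowest of the 4 groups had 35.2 and 75.7 CPM in the Fgd5-ko-labelled library and 51.8 and 79.5 CPM in the WT-labelled library. Fibroblast markers summed to 198 CPM in Fgd5-ko-labelled and 192 CPM in WT-labelled basal-like cells. In the basal-like cells with no UMI of a fibroblast marker other than Dcn (3909 Fgd5-ko-labelled and 5405 WT-labelled cells), Gstm1 was at 43.5 CPM and 64.4 CPM. Such cells can still hold fibroblast RNA, and its part in the level was not tested.

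**Figure D2:**
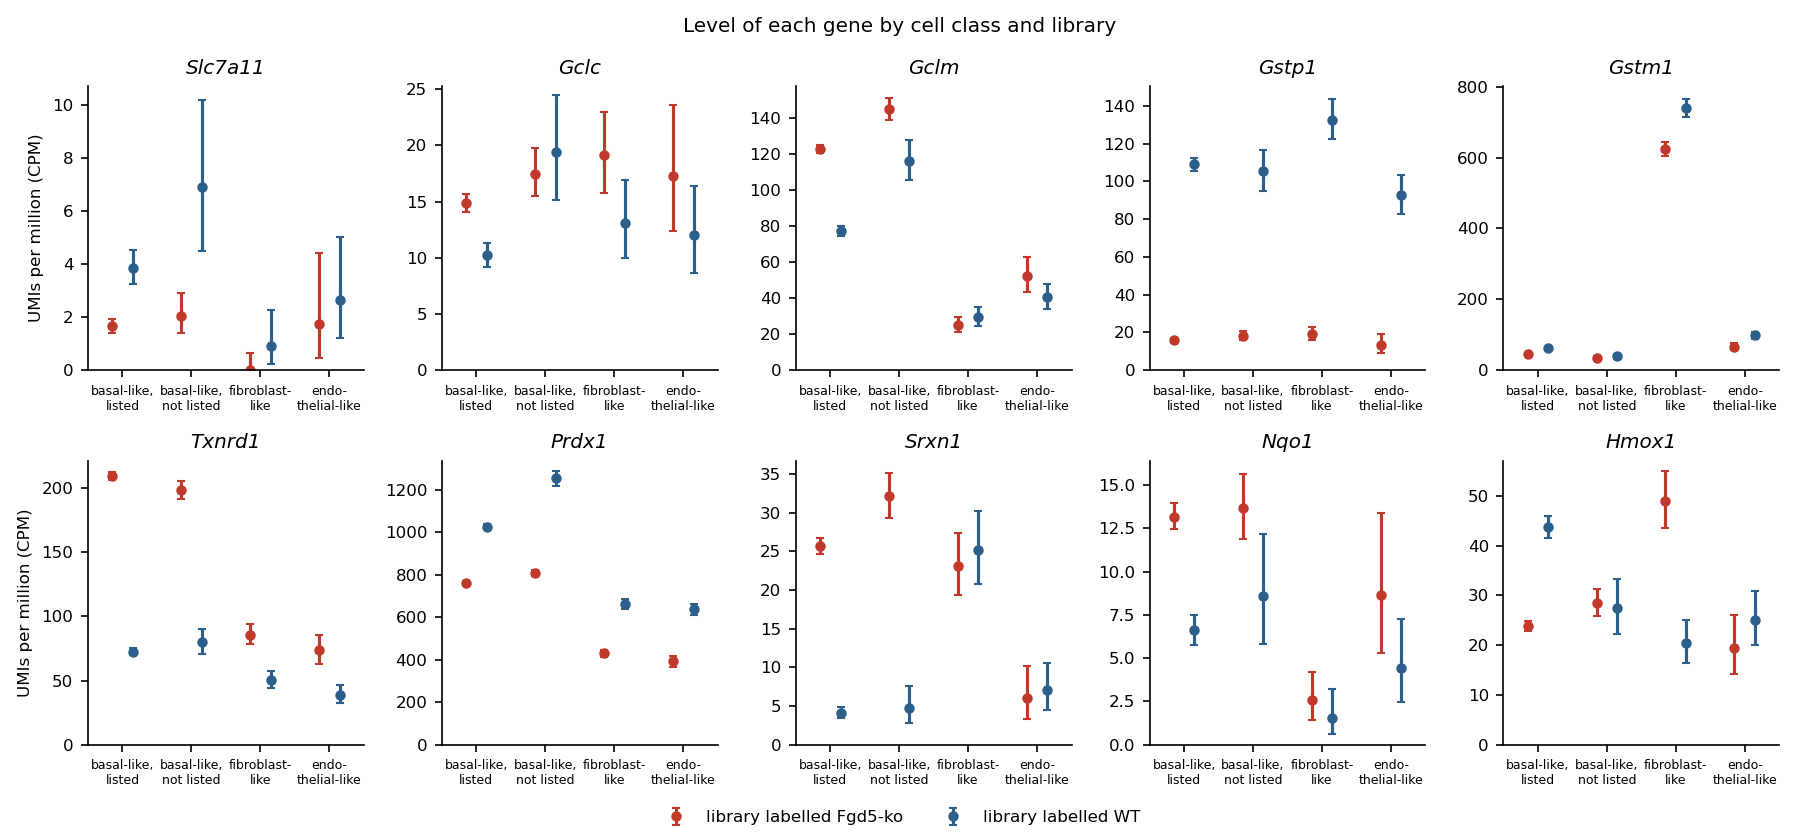
CPM of each gene (panels, vertical axes from 0) in listed basal-like cells, basal-like barcodes outside the table, fibroblast-like and endothelial-like cells. Red points are the Fgd5-ko-labelled library, blue points the WT-labelled library, bars exact intervals for counting error. Gstm1 stands out in fibroblast-like cells (624 CPM red, 740 CPM blue), and Srxn1 separates the libraries in basal-like cells (25.7 CPM red, 4.16 CPM blue) but not in fibroblast-like cells (23.1 CPM red, 25.1 CPM blue).

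Cytosolic thioredoxin reductase, Txnrd1 (ENSMUSG00000020250, chr10:82833951-82897712, plus strand), was at 209 CPM (206 to 212, 18469 UMIs) in Fgd5-ko-labelled basal-like cells and at 72.6 CPM (69.8 to 75.4, 2583 UMIs) in WT-labelled ones, 2.89-fold higher (log2 ratio 1.53, 1.47 to 1.59). The direction was the same in basal-like barcodes outside the table (1.31, 1.14 to 1.49), endothelial-like cells (0.91, 0.58 to 1.25) and fibroblast-like cells (0.76, 0.53 to 0.99). Basal-like cells had more Txnrd1 than the other classes: fibroblast-like cells had 85.9 CPM in the Fgd5-ko-labelled and 50.7 CPM in the WT-labelled library, and endothelial-like cells 73.6 CPM and 39.1 CPM. Its counts may include reads of Eid3, a counted gene on the same strand that overlaps it.

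The peroxiredoxin Prdx1 (ENSMUSG00000028691, chr4:116685544-116700822, plus strand) was at 763 CPM (757 to 768) in Fgd5-ko-labelled basal-like cells and at 1026 CPM (1016 to 1037) in WT-labelled ones, a log2 ratio of -0.43 (-0.45 to -0.41). It was lower in the Fgd5-ko-labelled library in every class compared, with log2 ratios of -0.63 in basal-like barcodes outside the table, -0.62 in fibroblast-like and -0.70 in endothelial-like cells. The basal-like ratio was past 1.5-fold among cells of 4000 to 12000 UMIs (-0.66) and with TMM factors (-0.61). Like Gclc and Gclm it was highest in the hormone-sensing luminal-like cells of the WT-labelled library, at 1629 CPM (1571 to 1689).

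Sulfiredoxin, Srxn1 (ENSMUSG00000032802, chr2:152105516-152111376, plus strand), had the highest ratio of the 10 members in basal-like cells. Its ratios over all fibroblast-like and over all endothelial-like cells were near 0. It was at 25.7 CPM (24.6 to 26.7, 2262 UMIs) in Fgd5-ko-labelled basal-like cells and at 4.16 CPM (3.52 to 4.89, 148 UMIs) in WT-labelled ones, 6.17-fold higher (log2 ratio 2.62, 2.38 to 2.87). Basal-like barcodes outside the table, which were deeper (medians of 41961.5 UMIs in the Fgd5-ko-labelled and 17756.5 UMIs in the WT-labelled library), had 32.1 and 4.71 CPM (log2 ratio 2.77, 2.07 to 3.56). Fibroblast-like cells had 23.1 CPM (19.3 to 27.3) in the Fgd5-ko-labelled and 25.1 CPM (20.7 to 30.2) in the WT-labelled library, a log2 ratio of -0.12 (-0.49 to 0.25). Endothelial-like cells had 6.06 CPM and 7.06 CPM (-0.22, -1.28 to 0.79). The interval of the basal-like ratio does not reach those of these 2 classes, but with 1 library per group the difference between classes was not tested. The libraries also held unlike clusters of these classes. In a fibroblast-like cluster with 76 Fgd5-ko-labelled and 63 WT-labelled cells the log2 ratio was 1.08 (-0.30 to 2.81), an interval that meets the basal-like one. Basal-like and fibroblast-like levels overlapped in the Fgd5-ko-labelled library, whereas in the WT-labelled library basal-like cells lay well below fibroblast-like cells.

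The share of cells with a Srxn1 UMI gave the same picture. With every cell thinned to 2000 UMIs, 4.13% (3.60 to 4.70) of Fgd5-ko-labelled and 0.812% (0.605 to 1.07) of WT-labelled basal-like cells had 1 or more. The thinned shares were 4.29% and 5.45% in fibroblast-like cells and 0.410% and 1.51% in endothelial-like cells of the Fgd5-ko-labelled and WT-labelled libraries. Thinning left out 0 and 61 basal-like, 8 and 32 fibroblast-like, and 11 and 181 endothelial-like cells. The share in WT-labelled basal-like cells was no higher than in WT-labelled endothelial-like cells. The level that free RNA can give was not measured, so the share in WT-labelled basal-like cells is not read as above it. Unthinned, 16.1% of Fgd5-ko-labelled and 2.05% of WT-labelled basal-like cells had a UMI, at median depths of 15464 and 4944 UMIs. At least 5 Srxn1 UMIs were counted in 148 Fgd5-ko-labelled basal-like cells, with up to 17 in a cell, and in 0 WT-labelled ones, where the highest count was 4.

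The quinone reductase Nqo1 (ENSMUSG00000003849, chr8:107388225-107403206, minus strand) was at 13.2 CPM (12.4 to 14.0) in Fgd5-ko-labelled basal-like cells and at 6.60 CPM (5.79 to 7.51) in WT-labelled ones, a log2 ratio of 0.998 (0.79 to 1.21). Its log2 ratio was 0.67 (0.12 to 1.26) in basal-like barcodes outside the table. Elsewhere Nqo1 was too sparse for a firm ratio, with 15 Fgd5-ko-labelled and 7 WT-labelled UMIs in fibroblast-like and 20 and 15 UMIs in endothelial-like cells, and intervals that include 0. Within the WT-labelled library it was highest in luminal progenitor and alveolar-like cells, at 18.8 CPM (11.3 to 29.4, 19 UMIs), with an interval that overlaps the next class.

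Haem oxygenase, Hmox1 (ENSMUSG00000005413, chr8:75093621-75100589, plus strand), went in opposite directions in basal-like and fibroblast-like cells. It was at 23.9 CPM (22.9 to 24.9, 2105 UMIs) in Fgd5-ko-labelled basal-like cells and at 43.7 CPM (41.6 to 45.9, 1555 UMIs) in WT-labelled ones, 1.83-fold lower (log2 ratio -0.87, -0.97 to -0.78). Fibroblast-like cells had 49.0 CPM (43.5 to 55.0) in the Fgd5-ko-labelled and 20.5 CPM (16.5 to 25.1) in the WT-labelled library, a log2 ratio of 1.26 (0.92 to 1.62). Basal-like barcodes outside the table (0.05, -0.27 to 0.38) and endothelial-like cells (-0.36, -0.91 to 0.18) lay between. The unnamed listed cluster with Dcn among its top genes, which scored highest on the basal list, had 53.8 CPM (50.2 to 57.6). With that cluster added to the basal-like cells the log2 ratio was -0.63, and over all listed cells it was -0.59.

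Macrophages are rich in Hmox1, and the 8 myeloid markers summed to 3.77 CPM in Fgd5-ko-labelled and 15.01 CPM in WT-labelled basal-like cells, with 1 marker at 0 in each library. In basal-like cells without any myeloid marker UMI (4918 Fgd5-ko-labelled and 5891 WT-labelled cells) Hmox1 was at 23.8 CPM and 44.1 CPM, a log2 ratio of -0.89 (-0.99 to -0.79). At this depth a cell that holds myeloid RNA can lack a marker UMI, and the part of such RNA in the ratio was not tested.

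Beyond the basal-like cells, 9 of the 10 members had at least 20 UMIs in fibroblast-like and in endothelial-like cells. In fibroblast-like cells 3 were at least 1.5-fold higher (Hmox1, Txnrd1 and Nqo1) and 2 lower (Gstp1 and Prdx1), where 20.6% of 11315 genes were higher and 14.1% lower. In endothelial-like cells 2 were higher (Nqo1 and Txnrd1) and 2 lower (Gstp1 and Prdx1), where 25.7% of 10037 genes were higher and 10.5% lower. Basal-like barcodes outside the table had 3 higher and 3 lower, where 30.8% of 12478 genes were higher and 9.22% lower. Gstp1 and Prdx1 were thus lower, and Txnrd1 higher, in the Fgd5-ko-labelled library in each of these classes.

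The fibroblast-like and endothelial-like classes were made of unlike clusters in the 2 libraries. Fibroblast-like cells were mostly in clusters led by Mrgprg and Ptx3 (208 cells) and by Hsd11b1 and Crabp1 (182 cells) in the Fgd5-ko-labelled library, and by Krtdap and Akr1c18 (425 cells) and by Il1r2 and Chrdl1 (215 cells) in the WT-labelled library. Endothelial-like cells were mostly in clusters led by Rbp7 and Adgrl4 (93 cells) and by Car4 and Cfd (86 cells) in the Fgd5-ko-labelled library, and by Gkn3 and Stmn2 (317 cells), Glycam1 and Ubd (163 cells) and Sele and Vwf (152 cells) in the WT-labelled library. A fibroblast-like cluster led by Smoc2 and Angptl1 held 76 Fgd5-ko-labelled and 63 WT-labelled cells. Within it the log2 ratio was -3.01 (-3.87 to -2.22) for Gstp1, -0.80 (-1.07 to -0.54) for Prdx1, 0.77 (0.46 to 1.08) for Gstm1, 0.48 (-0.50 to 1.59) for Txnrd1, 1.08 (-0.30 to 2.81) for Srxn1 and 0.49 (-0.74 to 1.94) for Hmox1. The ratios of Gstp1 and Prdx1 were thus like those of the class, the ratio of Gstm1 had the other sign, and those of Txnrd1, Srxn1 and Hmox1 had intervals that include 0. In the endothelial-like cluster led by Car4 and Cfd (86 Fgd5-ko-labelled and 144 WT-labelled cells) the log2 ratio was -2.41 (-3.82 to -1.23) for Gstp1, -1.18 (-1.47 to -0.90) for Prdx1 and 1.08 (0.18 to 2.04) for Txnrd1. There it was -0.99 (-1.54 to -0.47) for Gstm1 and, on 14 and 4 UMIs, 1.80 (0.13 to 3.86) for Gclc. Srxn1 (0.31, -1.90 to 2.65), Hmox1 (-0.55, -1.40 to 0.28), Gclm and Nqo1 had intervals that include 0. That of Srxn1 meets the basal-like one.

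Markers of other cell types also differed between the libraries in these classes. In fibroblast-like cells the T and NK markers summed to 20.2 CPM in the Fgd5-ko-labelled and 0.67 CPM in the WT-labelled library, the B cell markers to 11.3 and 1.11 CPM, the hormone-sensing luminal markers to 39.5 and 126 CPM, the endothelial markers to 47.0 and 98.0 CPM and the myeloid markers to 2.05 and 4.89 CPM. In endothelial-like cells the fibroblast markers summed to 35.5 CPM in the Fgd5-ko-labelled and 188 CPM in the WT-labelled library, the basal markers to 458 and 802 CPM, the pericyte and vascular smooth muscle markers to 142 and 41.2 CPM, and the erythroid markers to 23.8 and 69.4 CPM. Their part in the ratios of Hmox1, Txnrd1, Gstm1 and the other members in these classes was not tested.

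Basal-like cells were divided into 13 states by clustering without the 10 members and 62 other pathway genes, so these genes did not make the states. Each state but 1 came almost wholly from 1 library, so state and library cannot be told apart, and states are compared within a library. Over the 7 Fgd5-ko-labelled states, Srxn1 spanned a log2 range of 4.78 (3.57 to 6.32). It was highest in state 6 (806 cells, with Cxcl2, Efhd2, Rcan1, Vegfa and the AP-1 gene Fosl1 among its top genes), at 83.7 CPM (78.5 to 89.1). State 3 (1011 cells, led by 1600014C10Rik, Vcan and Lbhd2) followed at 34.4 CPM (31.9 to 37.1). The cycling states 9 (led by mitotic genes such as Cenpf and Ccnb1) and 8 (led by histone genes) had 21.6 and 16.8 CPM, with overlapping intervals. State 2, with 1663 cells and led by Malt1, Adamts1 and C3, had 8.39 CPM (7.36 to 9.52), and states 5 and 11 had 4.66 and 3.04 CPM. Srxn1 was thus concentrated: state 6 held 43.2% of its UMIs in these cells but 15.5% of the cells and 13.2% of all their UMIs. Without state 6 the log2 ratio of Srxn1 between the libraries was 2.01.

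The 6 WT-labelled states had 0.49 to 7.69 CPM of Srxn1, with between 1 and 112 UMIs each. Across states Pearson's r of log2(CPM + 1) between Txnrd1 and Srxn1 was 0.51 in the Fgd5-ko-labelled library (7 states) and 0.73 in the WT-labelled library (6 states). Among the Fgd5-ko-labelled states Txnrd1 was highest in states 5 and 6 (251.3 and 250.8 CPM) and lowest in state 11 (74.97 CPM, 63.4 to 88.1). Srxn1 had its lowest value in state 11 too, on 6 UMIs (1.12 to 6.62 CPM), which overlaps its interval in state 5 (3.41 to 6.22 CPM). Among the WT-labelled states Txnrd1 was highest in state 10, led by Lama5, Eln and Flnc, at 146 CPM (125 to 170), and lowest in state 7 (25.7 CPM). Srxn1 had its highest and lowest values in the same states, but on only 9 and 1 UMIs. Its interval in state 10 (3.52 to 14.6 CPM) overlaps that in state 1 (4.06 to 5.93 CPM), so its highest state is not resolved. State 5 (885 cells, led by Gm8797, Ankrd1 and Slpi) combined high Txnrd1 and low Srxn1 with the lowest Gclm of its library (76.6 CPM, 71.2 to 82.3) and the highest Gstm1 (86.0 CPM, 80.3 to 92.0).

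**Figure D3:**
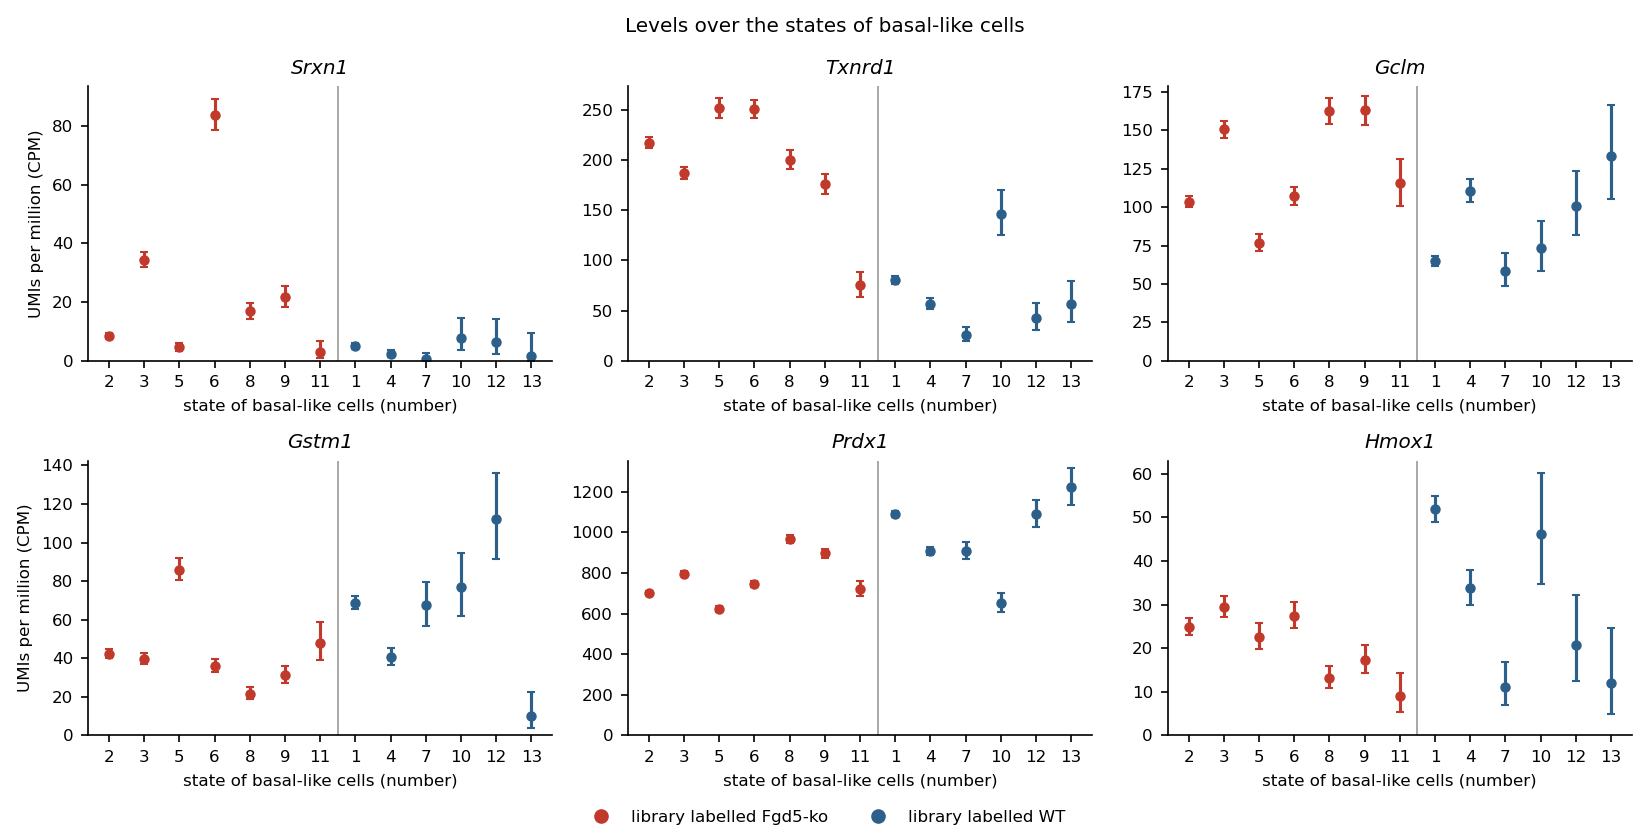
CPM of 6 genes (panels, vertical axes from 0) over the states of basal-like cells with at least 50 cells, by state number, with the Fgd5-ko-labelled states (red) left of the WT-labelled states (blue). Bars are exact intervals for counting error. Srxn1 is concentrated in state 6 (83.7 CPM) and state 3 (34.4 CPM), whereas Gclm is highest in the cycling states 8 and 9 (163 CPM each).

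Gclm and Prdx1 were high together in the cycling states. Gclm was at 163 CPM in both state 8 and state 9, with state 3 (150.7 CPM) overlapping them, and Prdx1 was at 968 CPM (948 to 989) and 898 CPM (876 to 921), its 2 highest values among the Fgd5-ko-labelled states. State 13 of the WT-labelled library, with histone genes and Pclaf among its top genes (56 cells), also had the highest Gclm (133 CPM, 105.5 to 167) and Prdx1 (1225 CPM, 1137 to 1318) of the WT-labelled states. Its intervals overlap those of state 12 for both genes (81.6 to 124 CPM and 1026 to 1162 CPM) and that of state 4 for Gclm (103.5 to 118 CPM). Gstm1 had the lowest value of its library in state 8 (21.7 CPM) and in state 13 (10.3 CPM). Across the states Pearson's r of log2(CPM + 1) was 0.94 for Gclm with Prdx1 in the Fgd5-ko-labelled library (7 states) and 0.44 in the WT-labelled library (6 states). It was -0.86 and -0.64 for Gclm with Gstm1. The points share a library, and the cycling states are among its deepest (median of 27705 UMIs per cell in state 8), so these values only describe the states.

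Hmox1 went with Txnrd1 over the states. Pearson's r of log2(CPM + 1) was 0.79 in the Fgd5-ko-labelled library (7 states) and 0.78 in the WT-labelled library (6 states). Gclc went against Gstm1 in the Fgd5-ko-labelled library (-0.84) but with it in the WT-labelled library (0.67). These pairs, like those above, are a few of all pairs of members, and the values only describe the states. Hmox1 was highest in the WT-labelled states 1 and 10 (51.9 and 46.1 CPM), with overlapping intervals, and among the WT-labelled states lowest in state 7 (11.2 CPM, 7.07 to 16.7). The myeloid markers summed to 18.5 and 31.6 CPM in states 1 and 10 and to 5.34 to 6.96 CPM in the other WT-labelled states, and the part of myeloid RNA in this order was not tested. The Fgd5-ko-labelled states lay between 9.12 CPM of Hmox1 in state 11 and 29.5 CPM in state 3. Gclc was highest in state 12 (105 WT-labelled cells, led by Ly6d, BC100530 and Aldh3a1) at 44.6 CPM (32.0 to 60.5), with 12.2 to 19.0 CPM in the Fgd5-ko-labelled states and 6.72 to 18.8 CPM in the other WT-labelled states.

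The wider pathway was described by 62 further genes, of which 60 had at least 20 UMIs in basal-like cells. Of these 7 were at least 1.5-fold higher in the Fgd5-ko-labelled library, 4 lower and 49 within that limit, with a median log2 ratio of 0.14. Over all genes tested, 26.9% were higher and 10.1% lower, with a median of 0.24, so both shares in this list were below those of genes in general. With TMM factors the number higher was 4. Among the 6 regulators 2 were higher and none lower. Bach1, the repressor at antioxidant response elements, was at 68.4 CPM in Fgd5-ko-labelled and 20.7 CPM in WT-labelled basal-like cells (log2 ratio 1.72, 1.61 to 1.83). Mafg, a small MAF partner of both NRF2 and BACH1, was at 109.8 CPM in Fgd5-ko-labelled and 40.7 CPM in WT-labelled cells (1.43, 1.35 to 1.51). Nfe2l2 itself (0.28) and its inhibitor Keap1 (0.52) lay within 1.5-fold.

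Of 11 genes of glutathione synthesis, recycling and peroxidases with enough UMIs, 1 was higher. This was Slc3a2, the partner chain of Slc7a11 and of other amino acid carriers, at 438 CPM in Fgd5-ko-labelled and 261 CPM in WT-labelled cells (log2 ratio 0.75, 0.71 to 0.78), opposite in direction to Slc7a11. Gpx4, which reduces lipid peroxides, was at 655 CPM in Fgd5-ko-labelled and 843 CPM in WT-labelled cells (-0.36). Of 13 other glutathione transferases, Gsta4 was higher (log2 ratio 0.89, 1268 Fgd5-ko-labelled and 277 WT-labelled UMIs) and 2 sparse genes, Gstp2 and Mgst2, were lower. The better covered Gsto1 (-0.54), Mgst3 (-0.44) and Mgst1 (0.32) lay within 1.5-fold.

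Of 9 thioredoxins and peroxiredoxins 1 was higher: Txnip, which binds and inhibits thioredoxin, at 576 CPM in Fgd5-ko-labelled and 219 CPM in WT-labelled cells (log2 ratio 1.39, 1.36 to 1.43). Thioredoxin itself, Txn1, was at 649 CPM in Fgd5-ko-labelled and 453 CPM in WT-labelled cells (0.52, 0.50 to 0.54), and Prdx4 had a ratio of 0.34. None of the 4 genes for superoxide dismutases and catalase crossed 1.5-fold. Of 17 other NRF2 targets, Pgd (0.61) and Me1 (0.66), which make NADPH, were higher, and the epoxide hydrolase Ephx1 (-0.76) and the iron exporter Slc40a1 (-1.001) were lower. The ferritin heavy chain Fth1 had a ratio of -0.29.

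**Figure D4:**
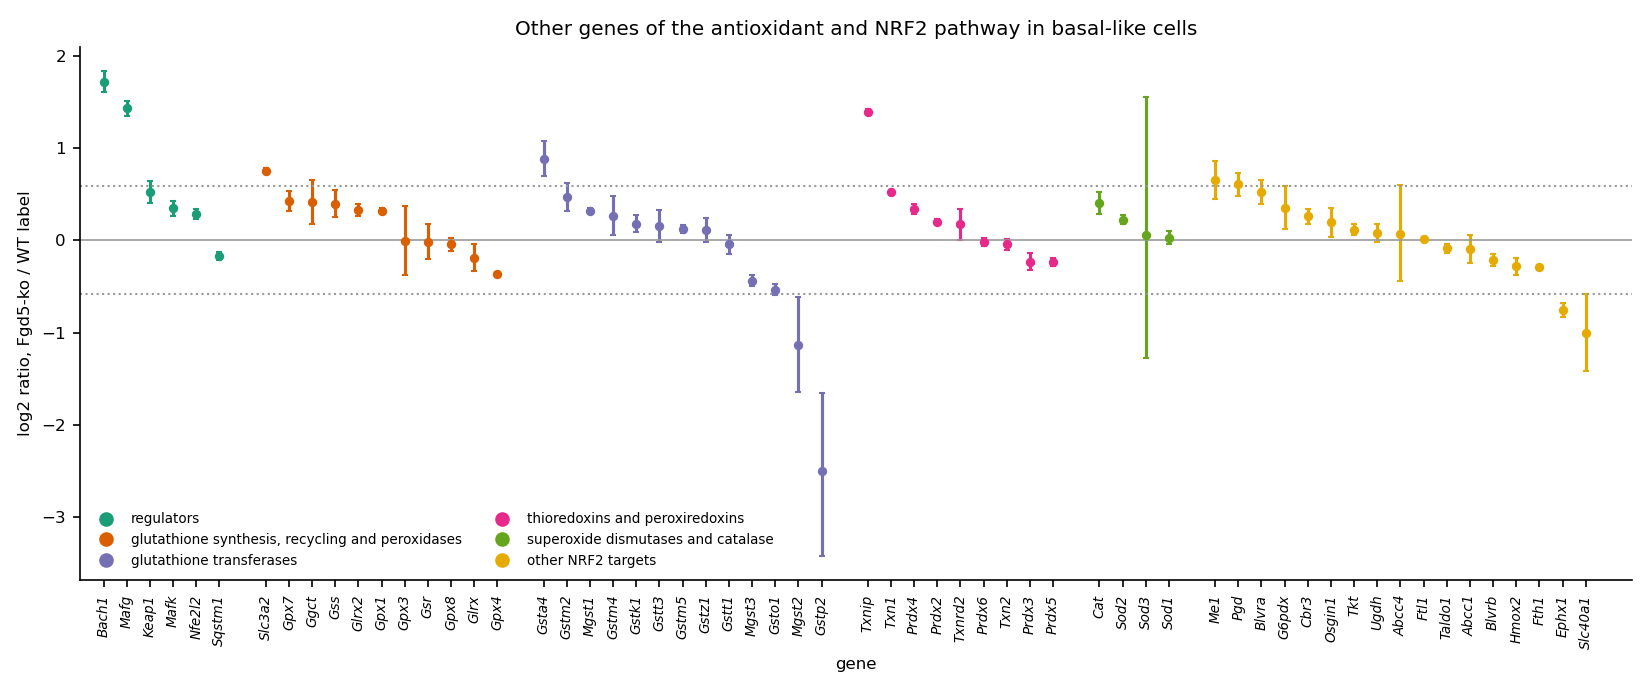
Log2 ratio of CPM in basal-like cells, Fgd5-ko-labelled over WT-labelled library, for the 60 other pathway genes with at least 20 UMIs, ordered by ratio within 6 groups (colours). Bars are exact intervals for counting error and dotted lines 1.5-fold. Bach1, Mafg and Txnip stand highest (1.72, 1.43 and 1.39) and Gstp2 lowest (-2.51), with 49 genes between the dotted lines.

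Likeness was measured over the 11 profiles of a class in a library with at least 50 cells, as Pearson's r of log2(CPM + 1) with each of 5865 genes of at least 20 CPM on average. Slc7a11, Gclc, Srxn1 and Nqo1 were themselves below that minimum, so their likenesses rest on few UMIs, with 0 or 1 UMI of Slc7a11 in 4 of the profiles. Mafg was most like Txnrd1 (0.983), followed by 4930523C07Rik (0.969) and Stk16 (0.956). Mafg was at 60.8 CPM in fibroblast-like and 47.2 CPM in endothelial-like cells of the Fgd5-ko-labelled library, and at 37.6 CPM and 28.2 CPM in those of the WT-labelled library, so like Txnrd1 it was highest in basal-like cells and higher in the Fgd5-ko-labelled library in each class. Prdx1 was most like Ndufb2, Rps27l and Ndufs3 (0.989, 0.983 and 0.976), 2 of which encode subunits of respiratory complex I. Gstm1 was most like C1s1, Fam102b and Adamts5 (0.982, 0.970 and 0.968), and Gstp1 most like Grcc10, Ost4 and Romo1 (0.964, 0.962 and 0.961). Gclm was most like Mrps7, S100a14 and Atp5h (0.954, 0.951 and 0.945), Nqo1 most like Nfib, Epha4 and Rchy1 (0.943, 0.917 and 0.915), and Srxn1 most like Phf21a, Vps35 and Ago2 (0.928, 0.897 and 0.863). Hmox1 was most like Hmcn1, Azin1 and Bgn (0.913, 0.827 and 0.817), Gclc most like Usp25, G3bp2 and Csnk1g3 (0.893, 0.844 and 0.837), and Slc7a11 most like Yaf2, Eogt and Msrb3 (0.862, 0.854 and 0.853). Profiles of 1 library share its preparation and depth.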

How the data were processed

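For each of the 2 libraries the authors deposited raw UMI counts, a number per gene and barcode, written by software of version 3.1.0 according to the file headers. Cell Ranger, Seurat 3.0 and the mm9 build appear in the submitters' processing notes, with no role stated, and the labels' protocols name the 10x Genomics 3′ V3 kit. The authors also deposited a table that gives each cell barcode its t-SNE coordinates and was used here only to list cells. The aligner settings, the use of strand and the handling of reads with several origins are not given there.

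The 10 members and all lists were chosen with earlier results of these data known. Listed cells, and apart from them the 1626 Fgd5-ko-labelled and 3490 WT-labelled barcodes outside the table with 1000 or more UMIs, 500 or more genes and no more than 15% mitochondrial UMIs, were scaled to 10000 per cell, log-transformed and clustered (2000 variable genes, 30 principal components, 15 neighbours, Leiden, resolution 1). Clusters were called X-like from 12 marker lists. The naming limits (a log2 lead of 2, 3 markers in 10% of cells, top 10 genes) were set after the data were seen. States came from a second clustering of listed basal-like cells at resolution 0.5, without members and pathway genes. UMIs were summed per class or state and library and divided by the total (CPM). Poisson, Clopper-Pearson and conditional intervals are exact, and a count of 0 allows up to 3 UMIs. A call is a ratio of at least 1.5-fold, whatever its interval, among genes with at least 20 UMIs. The rule named up to 4 genes of each pathway group, those with the largest ratios at a mean of at least 20 CPM. Further pathway genes and genes leading a cluster were picked with their values in view. Positions, gene overlaps and 3′ ends came from GENCODE M21 on GRCm38, matched by gene ID.

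The interval computation was tested on simulated counts. The tools were Python 3.11.15 with NumPy 2.4.6, SciPy 1.17.1, pandas 2.3.3, scikit-learn 1.9.0, igraph 0.11.9, leidenalg 0.10.2 and matplotlib 3.10.9, and R 4.3.3 with edgeR 4.0.16 for TMM factors alone.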

Additional observations from a re-analysis of the deposited data

Results flagged for a closer look

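The ratio of Hmox1 between the libraries had opposite signs in 2 cell classes. Its log2 ratio was -0.87 in basal-like cells and 1.26 in fibroblast-like cells, with intervals that do not meet. With 1 library per group the difference was not tested. The fibroblast-like cells of the libraries fell mostly into different clusters. The unnamed listed cluster with Dcn among its top genes, which scored highest on the basal list, had 53.8 CPM. With that cluster added the basal-like log2 ratio was -0.63. In the fibroblast-like cluster led by Smoc2 and Angptl1, which held cells of both libraries, the log2 ratio was 0.49 (-0.74 to 1.94). Basal-like barcodes outside the table had 28.4 CPM in the Fgd5-ko-labelled and 27.4 CPM in the WT-labelled library.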

How the results depend on the processing

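Of the 10 members, 6 (Slc7a11, Gstp1, Txnrd1, Srxn1, Nqo1 and Hmox1) kept their call under all 11 alternatives. Of these alternatives 2 (with the unnamed cluster that has Dcn among its top genes, and without shared barcodes) were added after the data were seen. Another, at least 1 UMI in each library, changes only which genes are counted and could not alter a member's ratio. With TMM and with median of ratios factors 5 members were lower instead of 3, and 4 pathway genes higher instead of 7. With cells thinned to 2000 UMIs 2 pathway genes were lower instead of 4. The members' median was -0.13 with TMM factors, -0.15 with median of ratios factors and -0.048 without mitochondrially encoded and ribosomal protein genes, against 0.05. The log2 ratio of Gstm1 turned to 0.26 among cells of 4000 to 12000 UMIs. The range of Srxn1 over states was 4.78 to 5.32. The cause of these shifts was not tested. The libraries differ in depth (medians of 15712 and 4954 UMIs per listed cell of the Fgd5-ko-labelled and WT-labelled libraries), and Slc7a11 and, in the WT-labelled library, Srxn1 rest on under 150 UMIs. No paired analysis was possible because each group has 1 library.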
